A study of Mus musculus with 2 samples.

Results

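The 10 genes described here mark how germ cells handle retinoic acid and enter differentiation: Crabp1, Crabp2, Rara, Rarg, Stra8, Kit, Sohlh1, Sohlh2, Dmrtb1 and Rhox13. They were matched by symbol among the 26893 named genes of 2 single-cell libraries, and all 10 were found. The first library held mouse spermatogonia treated with Chd4 siRNA, whose target is the remodelling enzyme of the NuRD complex on chromatin, and the second held spermatogonia treated with a control, non-targeted siRNA. Both came from C57BL/6 primary cultures of THY1+ cells of adult testes, kept on mitomycin-treated SNL76/7 feeder fibroblasts in serum-free medium with GDNF and bFGF. The cells were lifted off the feeders and left on plastic for 24 h with siRNA (75 pmol) in Lipofectamine (2 µL). Cells of 3 biological replicates were mixed before capture, so each treatment gave 1 library in which the replicates are merged. Without replicates there is no test between treatments and no p-value. Intervals are given at 95% and cover counting error alone, to which PCR and capture add more.

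Retinoic acid, made from vitamin A by retinol and retinaldehyde dehydrogenases, enters the nucleus and binds receptors of the RAR family, which pair with RXR proteins on DNA. In the testis a pulse of retinoic acid moves undifferentiated spermatogonia into differentiation, when they gain the receptor KIT and the protein STRA8 and become committed to meiosis. GDNF, the growth factor of these cultures, favours the undifferentiated state.

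A cell was counted as germ when its Dazl and Ddx4 unique molecular identifiers (UMIs, 1 per captured transcript) outnumbered those of Col1a1 and Fn1, and as feeder in the opposite case. This gave 760 germ cells in the Chd4 siRNA library and 728 in the control siRNA library, with 12251236 and 11605456 UMIs and medians of 15581.5 and 15282 per cell. There were 89 feeder cells under Chd4 siRNA and 79 under control siRNA, and 9 cells in each library were tied and left out. Feeder cells were deeper, with medians of 40805 and 38655 UMIs in that order of libraries. The other 12 measured germ cell markers, such as Zbtb16 and Mael, were 9.42- to 79.8-fold higher in CPM (a gene's UMIs scaled to a class total of 1000000) in germ than in feeder cells of the Chd4 siRNA library and 5.65- to 72.8-fold higher in the control siRNA library. The 15 measured feeder fibroblast markers summed to 133.1 CPM in germ cells of the Chd4 siRNA library and 130.7 in those of the control siRNA library, with 14 found in each. Within that list Col1a1 had 211 UMIs in Chd4 siRNA germ cells and 120 in control siRNA germ cells, a ratio of 1.67 (1.33 to 2.102), and Fn1 had 455 and 511. Their part in the results below was not tested, and the levels of the 10 genes in feeder cells are given beside those in germ cells. The libraries shared 1 barcode, of 799 complete barcodes listed for Chd4 siRNA and 817 for control siRNA.

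The siRNA target checked the labels. Chd4 had 3098 UMIs in germ cells under Chd4 siRNA and 6218 under control siRNA, or 252.9 and 535.8 CPM. The log2 ratio was −1.08 (−1.15 to −1.02).

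Of the set, 3 genes stood higher in Chd4 siRNA germ cells by a log2 ratio of at least 0.32, the line used below to count a gene as higher or lower: the binding proteins Crabp1 and Crabp2 and the transcription factor Sohlh2. The other 7, among them the receptors Rara and Rarg and the differentiation markers Stra8 and Kit, had intervals that included no difference, except Sohlh1, which was higher by 1.09-fold (1.01 to 1.18). Of the 9 genes with at least 50 UMIs over both libraries, 3 were past that line upwards, against 8.74% of all 11262 genes with that many UMIs. None was past it downwards, against 7.12% of all. At 1.5-fold 1 of the 9, Crabp1, was higher, against 2.16% of all genes. Crabp1 passed 1.5-fold narrowly, at a ratio of 1.51 and a log2 ratio of 0.60. With TMM and DESeq2 scaling its log2 ratio was 0.55 and 0.56, both under 1.5-fold. Of the 6 genes with at least 200 UMIs 3 were higher, against 4.7%, and with no minimum 3 of the 10 were higher, against 20.1%, and 1, Kit, was lower, against 19.5%. The median log2 ratio of the 9 genes with at least 50 UMIs was 0.13, and that of all 11262 genes was 0.05. Among 9 genes, 1 gene more or fewer moves the share by more than the whole background.

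**Figure D1:**
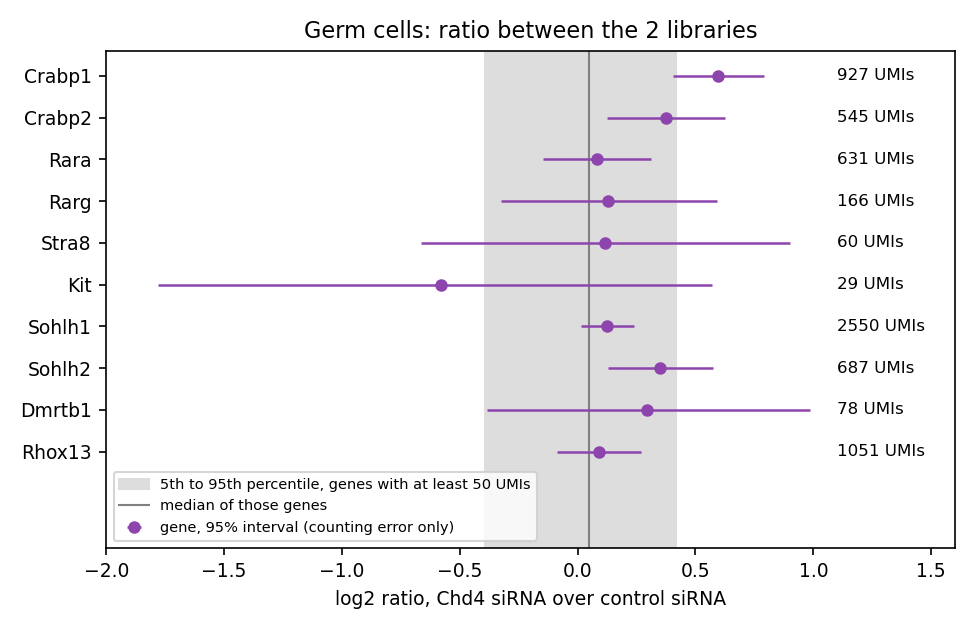
Log2 ratio of Chd4 siRNA over control siRNA in germ cells (horizontal axis) for each gene, with its 95% counting interval and its UMIs over both libraries. The gray band spans the 5th to 95th percentile of all genes with at least 50 UMIs, from −0.39 to 0.42, and the Crabp1 point, at 0.60, lies to the right of it.

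Crabp1 and Crabp2 are small cytosolic proteins that bind retinoic acid. CRABP2 is known to hand it to the receptors in the nucleus, and CRABP1 to hold it in the cytosol and favour its breakdown. Crabp1 (ENSMUSG00000032291, chr9:54764748-54773110 on mm10, plus strand) had 570 UMIs in Chd4 siRNA germ cells and 357 in control siRNA germ cells, or 46.5 (42.8 to 50.5) and 30.8 (27.7 to 34.1) CPM. The log2 ratio was 0.60 (0.40 to 0.79), a ratio of 1.51, and the 2 counting intervals of the level did not overlap. Of the 11262 genes with at least 50 UMIs, 232 (2.06%) had a ratio at least as high. Of the 8257 genes with at least 200 UMIs, 42 (0.51%) did.

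Under Chd4 siRNA more cells carried a Crabp1 UMI, and more carried at least 2. At the low mean counts given below, a higher level in all cells raises both shares. The shares therefore cannot tell more carrying cells from more transcript per cell. For shares, each cell was thinned to 9000 UMIs, which 697 germ cells of the Chd4 siRNA library and 666 of the control siRNA library reached. Crabp1 was found in 209 of the 697 cells (29.99%) under Chd4 siRNA and in 140 of the 666 (21.0%) under control siRNA, a difference of 8.96 percentage points (4.34 to 13.5). Averaged over all possible thinnings the shares were 28.8% and 21.7%. Without thinning they were 39.2% of 760 cells and 32.6% of 728 cells. Thinned cells with at least 2 Crabp1 UMIs were 73 (10.5%) in the Chd4 siRNA library and 27 (4.05%) in the control siRNA library. Those with at least 3 were 19 (2.73%) and 4 (0.60%). These counts are from a single draw of the thinning, whose mean was 0.45 UMIs per cell under Chd4 siRNA and 0.26 under control siRNA. Averaged over all thinnings the means were 0.42 and 0.27. Without thinning, 141 of 760 cells under Chd4 siRNA and 85 of 728 under control siRNA had at least 2 Crabp1 UMIs. The highest count in 1 unthinned cell was 9 under Chd4 siRNA and 7 under control siRNA, and the 10 cells with most Crabp1 held 10.9% and 12.05% of its UMIs. The 10 cells with most Crabp1 thus held about the same part of its UMIs in both libraries.

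**Figure D2:**
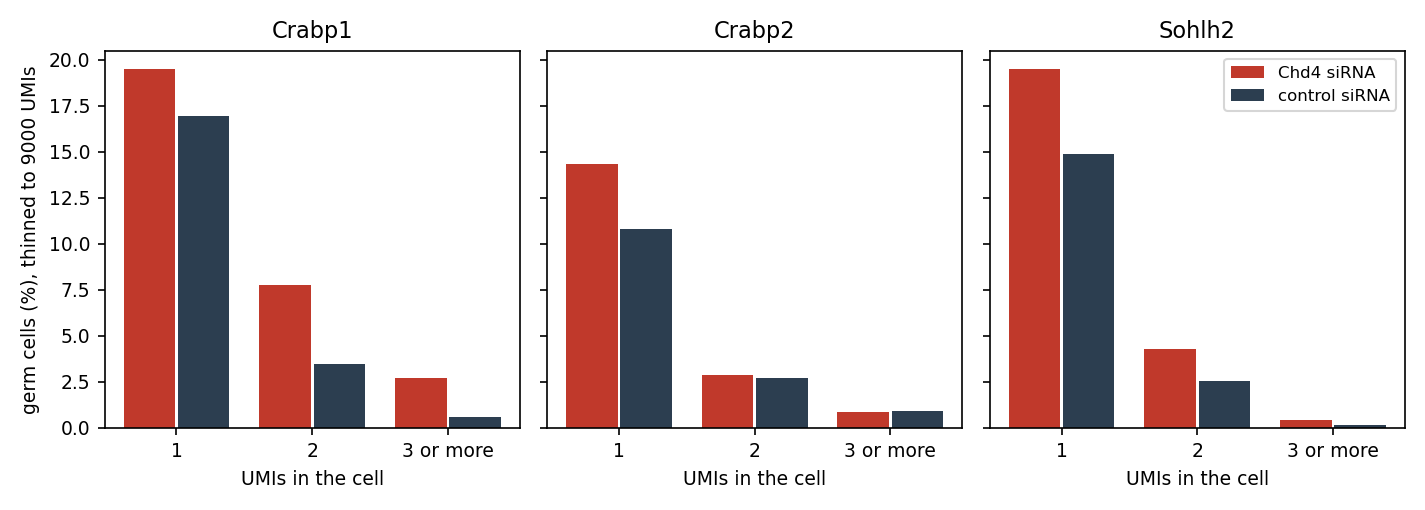
Percent of thinned germ cells (vertical axis) with 1, 2 or at least 3 UMIs of Crabp1, Crabp2 and Sohlh2, for Chd4 siRNA (left bar of each pair) and control siRNA. All bars are from a single draw of the thinning. Bars for Crabp1 stand higher under Chd4 siRNA at every count, with 2.73% against 0.60% of cells at 3 or more UMIs, whereas the Crabp2 bars at 2 and at 3 or more UMIs stand close together.

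In the same single thinning, the Crabp1 share was also compared within cells that did or did not carry Pou5f1, Egr4, Lin28a, Nanos2, Sall4 or Sohlh1. In all 12 of these subsets the share was higher under Chd4 siRNA, by 7.85 to 11.9 percentage points, and the interval excluded 0 in 10 of them. Cells carrying Pou5f1, a pluripotency factor kept in spermatogonia, had Crabp1 in 36.2% under Chd4 siRNA and 26.2% under control siRNA. Cells without a Pou5f1 UMI had it in 26.2% and 18.3%. The gap between the libraries was present on both sides of each marker tried, but the subsets split the same cells and draw that gave the whole gap. Subsets of different markers also share cells, so they are not separate support for it. The shares of Crabp2 and Rara were also higher under Chd4 siRNA in all 12 subsets, with intervals that excluded 0 in 2 for each gene. Sohlh1 was higher in all 10 of its subsets and Rhox13 in 11 of 12, and no interval of either excluded 0. The subsets of every gene follow that draw. In it the share differed by 8.96 percentage points for Crabp1 and 3.63 for Rara, against 7.11 and 0.69 averaged over all thinnings.

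Crabp2 (ENSMUSG00000004885, chr3:87948666-87953376, plus strand) had 315 UMIs in Chd4 siRNA germ cells and 230 in control siRNA germ cells, or 25.7 (22.95 to 28.7) and 19.8 (17.3 to 22.6) CPM. The log2 ratio was 0.38 (0.13 to 0.63). Thinned shares were 18.1% and 14.4% in the same order, and their difference of 3.66 percentage points had an interval from −0.26 to 7.57. The share of cells with at least 2 UMIs was 3.73% under Chd4 siRNA and 3.60% under control siRNA. The difference of 0.13 percentage points between these had an interval from −1.94 to 2.17. With cells thinned to 6000 UMIs the shares with Crabp2 were 13.7% and 8.24%, a difference of 5.45 percentage points (2.22 to 8.67), and without thinning they were 26.2% and 19.9%, a difference of 6.27 (1.98 to 10.5). Averaged over all thinnings the difference was 3.83 at 9000 UMIs and 3.15 at 6000. Crabp2 thus differed beyond counting error in the summed level and without thinning. The single draw at 6000 UMIs did so too and that at 9000 did not, but the averages at these depths were close. No interval was computed for the averages. Crabp1 and Crabp2 transcripts, of 802 and 931 bases in the GENCODE transcript set, shared no run of 31 bases, and their longest shared run was 11 bases.

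In feeder cells the binding proteins were rare. Crabp1 had 10 UMIs in Chd4 siRNA feeder cells and 2 in control siRNA feeder cells, or 2.77 and 0.63 CPM, and Crabp2 had 8 and 12. In CPM, Crabp1 was 16.8-fold (9.06 to 35.2) higher in germ than in feeder cells under Chd4 siRNA and 48.8-fold (13.4 to 404.7) higher under control siRNA. Crabp2 was 11.6-fold (5.81 to 27.1) higher in germ cells under Chd4 siRNA and 5.24-fold (2.94 to 10.3) higher under control siRNA. At equal depth 2 of 84 Chd4 siRNA feeder cells and 0 of 75 control siRNA feeder cells carried Crabp1, and the 0, taken as 3 counts of the total, allows a share of up to 4%.

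The region before the Crabp1 start is shown because Crabp1 had the highest ratio of the set. RefSeq start windows (GRCm38.p6, from 250 bases before to 50 after the start) were found for 9 of the 10 genes, all but Crabp2. The letters searched on both strands were AGGTCA, the motif of which retinoic acid receptors are known to bind pairs, CACGTG, an E-box that helix-loop-helix factors bind, and GGGCGG, the GC box. AGGTCA occurs in 16.3% of the 32851 windows of all genes, CACGTG in 7.15% and GGGCGG in 35.7%. The Crabp1 window held 5 GC boxes and no AGGTCA or CACGTG, and 10.7% of windows hold 3 or more GC boxes. The pair of GC boxes nearest to the start whose surrounding bases lie before it are shown, with the GC box, read as CCGCCC on the opposite strand in the first, in capitals.
Crabp1 chr9:54764687-54764716, plus strand: gtgggccaccccCCGCCCctcgtgcacgca
Crabp1 chr9:54764711-54764740, plus strand: cacgcagggcagGGGCGGgacttgagggcg

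The receptors differed little between the libraries. RARA and RARG are nuclear receptors that turn retinoic acid into a change of transcription, and in mouse spermatogonia RARG is known for the first step into differentiation. Rara (ENSMUSG00000037992, chr11:98927818-98974942) had 333 UMIs in Chd4 siRNA germ cells and 298 in control siRNA germ cells, or 27.2 and 25.7 CPM, a log2 ratio of 0.08 (−0.15 to 0.31). Its thinned shares were 22.1% and 18.5%, and averaged over all thinnings 20.9% and 20.2%. Rarg (ENSMUSG00000001288, chr15:102234938-102257517) had 89 UMIs and 77, or 7.26 and 6.63 CPM, a log2 ratio of 0.13 (−0.33 to 0.59), and was found in 5.88% and 6.46% of thinned cells. The interval for Rarg still allows a ratio as low as 0.80 or as high as 1.51. Rara overlaps a small nuclear RNA gene, Gm22061, on the same strand, so reads from that span could belong to either.

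Both receptors were shared with the feeder layer. Rara stood at 29.1 CPM in feeder cells of the Chd4 siRNA library and 33.1 in those of the control siRNA library, from 105 UMIs in each. The germ to feeder ratio of Rara was 0.93 (0.75 to 1.17) under Chd4 siRNA and 0.78 (0.62 to 0.98) under control siRNA. Rarg was lower in germ than in feeder cells, at ratios of 0.39 (0.28 to 0.54) and 0.31 (0.22 to 0.44), with 68 UMIs in the feeder cells of each library. Ordered by level, Rarg ran from control siRNA germ cells through Chd4 siRNA germ cells to Chd4 siRNA and then control siRNA feeder cells, and the intervals of neighbours within a cell class overlapped. The only other RAR gene, Rarb, had 1 UMI in Chd4 siRNA germ cells and 3 in control siRNA germ cells.

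**Figure D3:**
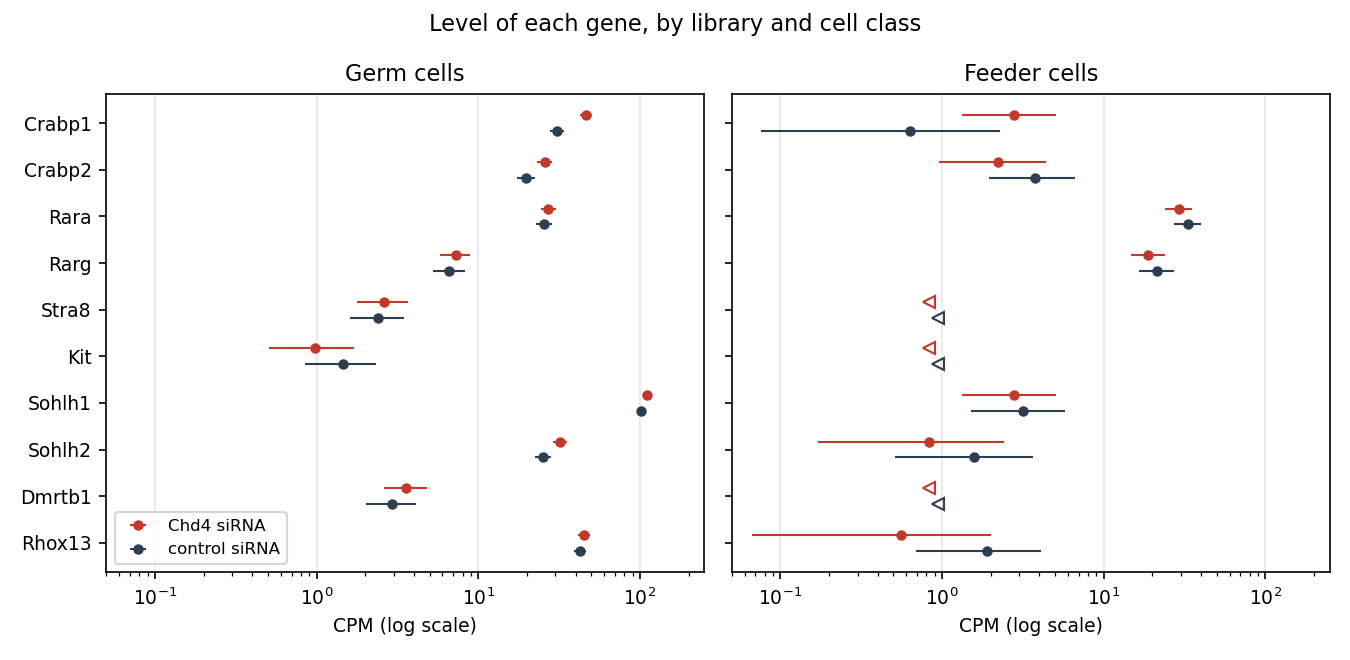
CPM (log axis) of each gene in germ cells (left panel) and feeder cells (right panel), with exact Poisson 95% intervals, for Chd4 siRNA (upper point) and control siRNA (lower point). Open triangles mark genes with 0 UMIs in feeder cells, drawn at the level of 3 UMIs. Rara and Rarg are the 2 genes with feeder levels as high as or above the germ level, with Rarg at 18.9 CPM in feeder cells of the Chd4 siRNA library and 21.4 CPM in those of the control siRNA library.

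Stra8, which retinoic acid induces before meiosis, and Kit, the receptor for stem cell factor that marks differentiating spermatogonia, were rare and could not be separated between the libraries. Stra8 (ENSMUSG00000029848, chr6:34920163-34939344) had 32 UMIs in Chd4 siRNA germ cells and 28 in control siRNA germ cells, a log2 ratio of 0.11 (−0.66 to 0.90). It was found in 18 of 697 thinned cells (2.58%) and in 12 of 666 (1.80%). Kit (ENSMUSG00000005672, chr5:75574916-75656722) had 12 UMIs and 17, a log2 ratio of −0.58 (−1.78 to 0.57). It was found in 5 thinned cells (0.72%) under Chd4 siRNA and 7 (1.05%) under control siRNA. At this depth a difference below about the width of these intervals was not detectable, and a change of either gene is not shown to be absent.

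No feeder cell carried a Stra8 or Kit UMI in either library. For thinned cells, 0 of 84 and 0 of 75, taken as 3 counts of the total, allow shares of up to 3.57% under Chd4 siRNA and 4% under control siRNA, which are above the germ cell shares. Against a floor of 3 UMIs per class and library, the summed level of Stra8 was at least 3.14-fold higher in germ than feeder cells under Chd4 siRNA and at least 2.55-fold higher under control siRNA. That of Kit was at least 1.18-fold and 1.55-fold higher. The exact counting intervals of these ratios, which also cover the error of the germ count, began at 2.41 and 1.94 for Stra8 and at 0.82 and 1.13 for Kit. Kitl, the ligand of KIT, had 181 UMIs in Chd4 siRNA feeder cells and 120 in control siRNA feeder cells, with 13 and 7 in the germ cells.

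Too few cells carried Stra8 or Kit to say whether they met in the same cells more or less often than apart. In unthinned germ cells, Stra8 was found in 29 of 760 under Chd4 siRNA and in 25 of 728 under control siRNA, and 1 of these in each library also carried Kit (3.45% and 4%, against 1.37% and 1.71% of cells without Stra8). Sohlh1 was found in 24 of the 29 (82.8%, exact binomial interval 64.2 to 94.2) and in 22 of the 25 (88.0%, 68.8 to 97.5), against 65.7% and 64.7% of cells without Stra8. Of these 2 intervals only that of control siRNA lay wholly above the share in the remaining cells. Sohlh2 was found in 55.2% (35.7 to 73.6) of cells with Stra8 against 35.2% under Chd4 siRNA, and in 48% against 29.7% under control siRNA. Rarg was found in 20.7% against 10.1%, and in 24% (9.36 to 45.1) against 9.10%. Crabp2 was less frequent in cells with Stra8 under Chd4 siRNA and more frequent under control siRNA. The median depth of cells with and without Stra8 was 15930 and 15516 UMIs under Chd4 siRNA, and 15551 and 15232 under control siRNA. Neurog3, a marker of cells about to differentiate, was found in 1 of the 29 and 0 of the 25 cells with Stra8, against 4.79% and 4.98% of cells without it, which cannot be told apart at this number of cells.

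The Stra8 start window is shown because it carried 2 copies of the AGGTCA motif, which 1.81% of all windows do. It held no CACGTG and no GGGCGG. The motif is in capitals. Both stretches also overlap an exon of a longer Stra8 transcript in the GENCODE annotation.
Stra8 chr6:34920742-34920771, plus strand: gatggggtgaaaAGGTCAtcttgctccttc
Stra8 chr6:34920898-34920927, plus strand: gcctggggtaccAGGTCAgttttttacctg

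Sohlh1 and Sohlh2 encode helix-loop-helix transcription factors that work together in spermatogonia and are needed for the gain of Kit and for differentiation in mice. Sohlh1 (ENSMUSG00000059625, chr2:25842995-25847248, minus strand) had 1365 UMIs in Chd4 siRNA germ cells and 1185 in control siRNA germ cells, or 111.4 (105.6 to 117.5) and 102.1 (96.4 to 108.1) CPM. The log2 ratio was 0.13 (0.01 to 0.24), and 3557 of 11262 genes (31.6%) had one at least as high. Its thinned shares were 54.2% and 51.5% of germ cells. Sohlh1 was thus carried by most thinned cells of both libraries, with a small difference between them.

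Sohlh2 (ENSMUSG00000027794, chr3:55182028-55209957, plus strand) had 394 UMIs in Chd4 siRNA germ cells and 293 in control siRNA germ cells, or 32.2 (29.1 to 35.5) and 25.2 (22.4 to 28.3) CPM. The log2 ratio was 0.35 (0.13 to 0.57), and 840 of 11262 genes (7.46%) had one at least as high. With TMM and DESeq2 scaling it was 0.30 and 0.31, just under the line of 0.32. Sohlh2 was found in 24.2% of thinned germ cells under Chd4 siRNA and 17.6% under control siRNA, a difference of 6.68 percentage points (2.36 to 10.96), and in 23.4% and 19.0% averaged over all thinnings. The share was higher under Chd4 siRNA in all 12 subsets named above for Crabp1, the pair split by Sohlh1 included, by 5.25 to 11.4 percentage points. These subsets follow the single draw, whose difference of 6.68 percentage points was 4.36 on average over all thinnings. Cells carrying Sohlh1 had Sohlh2 in 25.9% under Chd4 siRNA and 19.5% under control siRNA, and cells without it in 22.3% and 15.5%.

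Both genes were close to germ specific. In feeder cells Sohlh1 had 10 UMIs in each library, and Sohlh2 had 3 under Chd4 siRNA and 5 under control siRNA. Germ levels were 40.2-fold (21.8 to 84.0) and 32.4-fold (17.6 to 67.8) above feeder levels for Sohlh1, and 38.7-fold (13.1 to 188.3) and 16.03-fold (6.79 to 49.7) for Sohlh2. These ratios were within the range of the 12 germ cell markers given above.

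The Sohlh1 start window is shown because it held 3 copies of CACGTG, which 0.0883% of all windows do, shown in capitals on the strand of the gene. The second of those below overlaps an AGGTCA match by sharing the letters CA. The Sohlh2 window held none of AGGTCA and CACGTG and 1 GC box.
Sohlh1 chr2:25847462-25847491, minus strand: gctgcaagctatCACGTGggctgtgatcag
Sohlh1 chr2:25847442-25847471, minus strand: ctgtgatcaggtCACGTGgtctgaaggtct
Sohlh1 chr2:25847423-25847452, minus strand: tctgaaggtctgCACGTGaagcagggagtc

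Dmrtb1 encodes DMRT6, a DNA-binding factor of late spermatogonia in mice, and Rhox13 is an X-linked homeobox gene tied to retinoic acid and to differentiation of mouse spermatogonia. Dmrtb1 (ENSMUSG00000028610, chr4:107676290-107684230) had 44 UMIs in Chd4 siRNA germ cells and 34 in control siRNA germ cells, a log2 ratio of 0.29 (−0.38 to 0.98), and none in feeder cells. It was found in 2.73% and 2.40% of thinned germ cells. Rhox13 (ENSMUSG00000050197, chrX:38121219-38129967) had 556 UMIs and 495, or 45.4 (41.7 to 49.3) and 42.7 (39.0 to 46.6) CPM, a log2 ratio of 0.09 (−0.09 to 0.27). It was found in 32.6% and 29.9% of thinned germ cells. Rhox13 had enough UMIs for its interval to exclude a ratio above 1.203 between the libraries, and Dmrtb1 did not. In feeder cells Rhox13 had 2 UMIs under Chd4 siRNA and 6 under control siRNA.

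**Figure D4:**
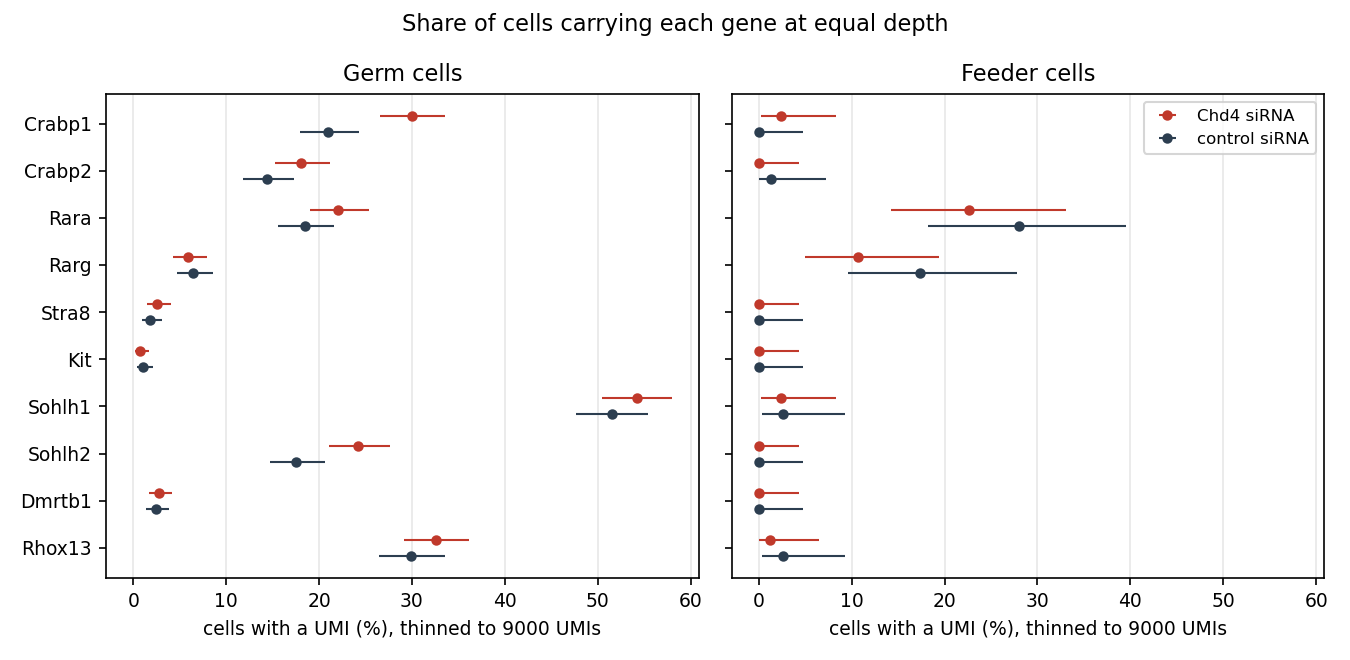
Percent of cells with at least 1 UMI of each gene (horizontal axis) after thinning to 9000 UMIs, with exact binomial 95% intervals, in germ cells (left panel) and feeder cells (right panel). Chd4 siRNA is the upper and control siRNA the lower point of each pair. All points are from a single draw of the thinning. In that draw Crabp1 and Sohlh2 are separated between the libraries in germ cells, at 29.99% against 21.0% and 24.2% against 17.6%. Averaged over all thinnings they were at 28.8% against 21.7% and 23.4% against 19.0%, with no interval computed. In feeder cells Rara and Rarg alone exceed 10%.

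Most germ cells carried few of the 10 genes at equal depth. The median thinned cell had 2 of them in either library, and the mean was 1.93 under Chd4 siRNA and 1.65 under control siRNA. None of the 10 was found in 11.5% of cells under Chd4 siRNA and 16.2% under control siRNA. At least 5 were found in 21 cells under Chd4 siRNA and 6 under control siRNA. These counts are from the single thinning and were not averaged over thinnings. In that draw the share gaps of Crabp1, Rara, Sohlh1 and Sohlh2 were larger than their averages, though that of Crabp2 was not. How uneven a gene was between cells is given by the variance of its thinned UMIs over their mean, which is 1 for counting noise alone. Sohlh1 was at 1.65 under Chd4 siRNA and 1.68 under control siRNA, Crabp1 at 1.52 and 1.19, and Crabp2 at 1.34 and 1.43. Rhox13, at 1.01 and 1.17, and Sohlh2, at 1.09 in each library, were closer to counting noise. The measure can rise with the mean, which for Crabp1 was 0.45 thinned UMIs per cell under Chd4 siRNA and 0.26 under control siRNA. Without thinning Crabp1 was at 2.08 and 1.498, and Kit, from 12 and 17 UMIs, at 1.15 and 1.80.

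Co-detection asked whether the genes meet in the same cells. Among the 6 genes found in at least 10% of thinned germ cells of both libraries, Crabp1, Crabp2, Rara, Sohlh1, Sohlh2 and Rhox13, there are 15 pairs. Of these, 1 pair differed beyond counting error in both libraries: Sohlh1 was found in 62.7% of cells with Crabp2 and 52.4% of cells without it under Chd4 siRNA, and in 61.5% and 49.8% under control siRNA. That is a difference of 10.3 and 11.6 percentage points, against 9.56 and 5.15 averaged over all thinnings. In the single draw at 6000 UMIs no pair did, and without thinning 4 did, Crabp1 with Crabp2 among them. Averaged over all thinnings the 15 differences ran from −2.58 to 9.56 percentage points under Chd4 siRNA and from −1.84 to 9.63 under control siRNA. Sohlh1 with Crabp1 had one of the highest averages, at 8.06 and 9.63, although the intervals of the single thinning included 0. Crabp1 with Crabp2, by contrast, was at 1.958 and 3.42, and Crabp1 with Rara at −0.17 and −0.95. For the 2 binding proteins the intervals of the single thinning included 0 and reached 9.59 and 13.9 percentage points.

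**Figure D5:**
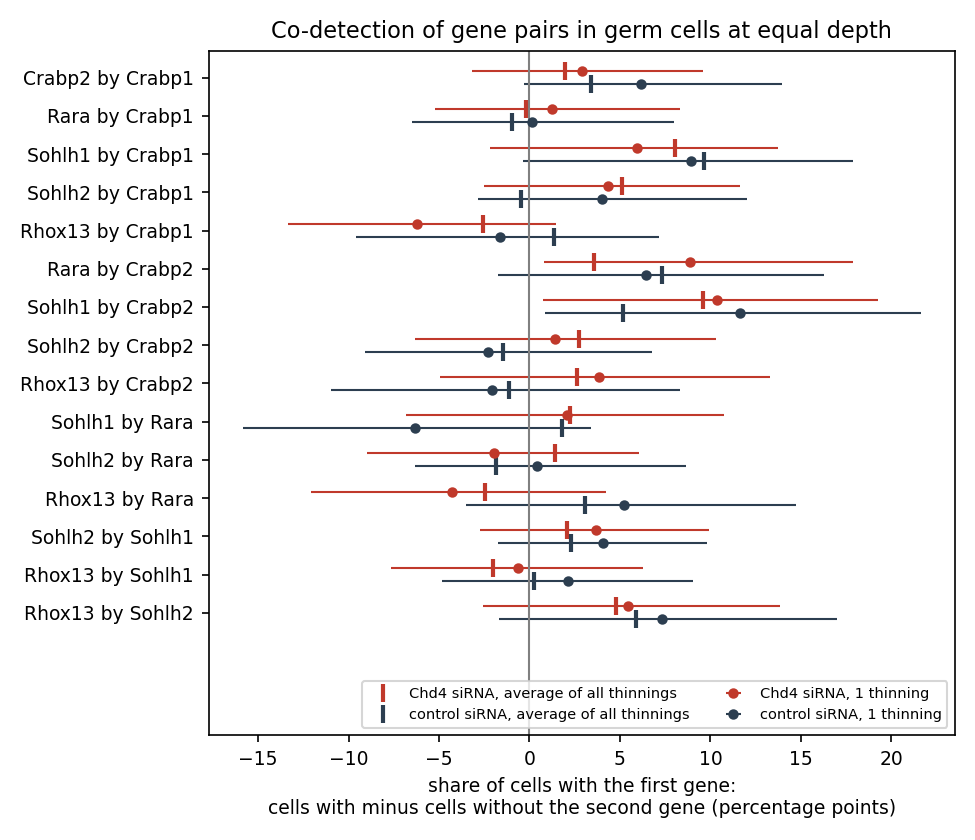
Difference in the share of germ cells carrying the first gene between cells with and without the second gene, in percentage points (horizontal axis), for the 15 pairs at 9000 UMIs per cell. Points with 95% intervals are from 1 thinning and upright ticks are averages over all thinnings, for Chd4 siRNA (upper) and control siRNA (lower). Sohlh1 by Crabp2 is the pair with both intervals to the right of 0.

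Of 270 pairs of these 6 genes with genes of the lists below, 6 differed beyond counting error in both libraries. Pairs with all other genes were not counted, so neither this count nor that of the 15 pairs has a background beside it. Whether these partners meet the 6 genes more often than other genes do was not tested. Pou5f1 was found in 45.9% of cells with Crabp1 and 34.6% of cells without it under Chd4 siRNA, and in 42.9% and 32.1% under control siRNA. For Crabp2 the Pou5f1 shares were 46.0% and 36.3% under Chd4 siRNA, and 50% and 31.8% under control siRNA. Egr4, a factor of the progenitor pool, was more frequent in cells with Crabp1, by 9.66 and 9.27 percentage points, and in cells with Sohlh2, by 10.9 and 11.6. Lin28a, an RNA-binding protein of progenitors, was more frequent in cells with Crabp1, by 6.64 and 7.07. Elavl2, which encodes an RNA-binding protein, was less frequent in cells with Sohlh1, at 55.0% against 70.5% in cells without it under Chd4 siRNA and 55.1% against 64.4% under control siRNA. In the single draw at 6000 UMIs the Crabp1 with Egr4 and Crabp2 with Pou5f1 differences were −1.02 and −1.80 percentage points under Chd4 siRNA. The other 4 pairs and the control siRNA library kept their signs in that draw. Averaged over all thinnings to 9000 UMIs, the Pou5f1 differences were 11.4 under Chd4 siRNA and 10.1 under control siRNA for Crabp1, and 10.5 and 15.0 for Crabp2. Those of Egr4 were 7.40 and 9.16 for Crabp1, and 9.73 and 4.43 for Sohlh2. That of Lin28a with Crabp1 was 5.58 and 7.05, and that of Elavl2 with Sohlh1 −13.7 and −16.7. The averages thus kept the direction of all 6 pairs, but the control siRNA value of Sohlh2 with Egr4 was much smaller, and that of Sohlh1 with Elavl2 larger, than in the single thinning. Averages over all thinnings to 6000 UMIs also kept the direction of all 6 pairs in both libraries. The changed signs at 6000 UMIs were thus those of the single draw alone.

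Likeness across single thinned cells was weak for each gene that could be measured. The 3 genes whose UMIs ranked most like Crabp1, among 7088 compared and by the lower of the 2 libraries, were Stmn1, Hmgb1 and Uchl1, with Spearman correlations of 0.15, 0.15 and 0.21 over 697 Chd4 siRNA cells and 0.13, 0.13 and 0.12 over 666 control siRNA cells. For Sohlh1 they were Fkbp6 (0.24 and 0.23), Uchl1 (0.19 and 0.18) and Mael (0.17 and 0.23). For Rhox13 they were Ndufa4, Dtymk and Hnrnpab, between 0.10 and 0.12. At such values no gene tracked any of the 3 closely.

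The other genes of the pathway were read from 6 lists, whose counts stand beside the 8.74% of all genes past the line upwards and 7.12% downwards. Of 20 genes of retinoid transport and receptors, 11 had at least 50 UMIs, and 1 was higher and 1 lower by at least 0.32 in log2 ratio, with a median log2 ratio of −0.10. Rxrb, a partner of the RAR receptors, had 198 UMIs in Chd4 siRNA germ cells and 240 in control siRNA germ cells, at −0.36 (−0.63 to −0.08). The corepressor Ncor1 was at −0.12 (−0.25 to 0.01). The coactivator Ncoa2 was at 0.35 (−0.02 to 0.73). The interval of Rxrb thus lay below no difference, while those of Ncor1, Ncoa2 and the receptors Rara and Rarg included it.

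Of 17 genes of retinoic acid synthesis and breakdown, 7 had at least 50 UMIs, and 1 was higher and 2 lower by at least 0.32 in log2 ratio, with a median of 0.14. Aldh1a3, which makes retinoic acid, had 177 UMIs in Chd4 siRNA germ cells and 214 in control siRNA germ cells, at −0.35 (−0.65 to −0.06), and Aldh1a2, another enzyme of that step, had 71 and 61. The other gene past the line downwards was the retinol dehydrogenase Rdh10, with 41 UMIs in Chd4 siRNA germ cells and 50 in control siRNA germ cells, named after its value was seen. Adh5, an alcohol dehydrogenase mainly known for formaldehyde, was at 0.27 (0.14 to 0.39), the reductase Rdh14 at 0.17 (−0.10 to 0.45) and Dhrs3, which turns retinaldehyde back to retinol, at 0.38 (−0.21 to 0.98). Cyp26b1, which breaks retinoic acid down, had 5 UMIs under Chd4 siRNA and 1 under control siRNA, the uptake receptor Stra6 had 3 and 0, and Lrat, which stores retinol as esters, had 1 and 1. Germ cells thus carried transcripts of the final synthesis step and next to none of Cyp26b1, Stra6 and Lrat.

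Of 18 genes known to respond to retinoic acid, 4 had at least 50 UMIs, with a median log2 ratio of 0.16. Btg2, an antiproliferative gene, had 962 UMIs in Chd4 siRNA germ cells and 792 in control siRNA germ cells, at 0.20 (0.07 to 0.34). Plat, the tissue plasminogen activator, was at 0.12 (−0.37 to 0.62), and the meiotic cohesin gene Rec8, which retinoic acid induces in germ cells, at −0.04 (−0.44 to 0.36) from 109 and 106 UMIs. Rec8 and Stra8, both induced at meiotic entry, thus stood within counting error of no difference.

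Of 20 genes of differentiating spermatogonia and early meiosis, 15 had at least 50 UMIs, and 2 were higher and none lower by at least 0.32 in log2 ratio, with a median of 0.08. The DNA methyltransferase Dnmt3a had 629 UMIs in Chd4 siRNA germ cells and 494 in control siRNA germ cells, at 0.27 (0.10 to 0.44), and Tex15, needed for meiotic recombination, was at 0.20 (0.12 to 0.28). Meioc, with 95 and 61 UMIs, was at 0.56 (0.08 to 1.05) and Ythdc2, with 241 and 174, at 0.39 (0.10 to 0.68). MEIOC and YTHDC2 form an RNA-binding complex that germ cells need to enter meiosis. They were the 2 of 15 past the line upwards, where the share of all genes is 8.74%.

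Of 14 progenitor genes, 13 had at least 50 UMIs, and 2 were higher and 1 lower by at least 0.32 in log2 ratio, with a median of −0.02. Upp1, a uridine phosphorylase, had 64 UMIs in Chd4 siRNA germ cells and 35 in control siRNA germ cells, at 0.79 (0.18 to 1.43). Pou5f1 had 931 and 659, at 0.42 (0.27 to 0.57), Uchl1 was at 0.09 (0.03 to 0.15), and Foxc2 at −0.34 (−0.52 to −0.16). Of 18 genes of stem cell maintenance, 17 had at least 50 UMIs, and none was higher and 1 lower by at least 0.32 in log2 ratio, with a median of −0.03. The 1 was Pax7, a marker of rare spermatogonia, at −0.35 (−1.05 to 0.34) from 34 and 41 UMIs, named after its value was seen. Sall4, a zinc finger factor of the stem and progenitor pool, was at −0.30 (−0.48 to −0.13), Pou3f1 at −0.27 (−0.40 to −0.13), Nanos2 at −0.25 (−0.50 to −0.01) and Lhx1 at −0.19 (−0.32 to −0.06). Of the 6 lists, 3 had a median above that of all genes and 3 below.

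Markers of other cell types were summed in the germ cells, and their part in the results was not tested. The 4 measured Leydig cell markers summed to 1.80 CPM under Chd4 siRNA and 2.50 under control siRNA, with Insl3, Hsd3b1 and Cyp11a1 at 0. Sertoli cell markers, with 7 of 7 found, summed to 24.3 and 23.1, led by Sox9, and stood at 284.2 and 262.4 in feeder cells. Macrophage markers summed to 15.2 and 13.9, led by Cd68, with Adgre1, C1qa and C1qb at 0. Endothelial markers summed to 11.7 and 11.98 with Tie1 at 0, and myoid markers to 0.25 and 0.26 with Cnn1 at 0. Spermatocyte markers had the highest sum of these lists, at 233.9 and 232.0, with Spag6 at 0. Nearly all of that sum was Sycp3, at 218.1 and 216.1. Averaged over all thinnings to 9000 UMIs, Sycp3 was found in 76.8% and 77.4% of germ cells. Spermatids were represented by Tnp1 alone, at 7.75 and 7.58, with Prm1, Prm2, Tnp2 and Acrv1 at 0.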

How the data were processed

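Per the file headers, the deposited values are whole-number UMI counts of genes in single cells, from 10x Genomics v2 libraries, per the labels' protocols. Cell Ranger 2.1.0, Seurat and mm10 are named in the submitters' processing notes. The sources used here do not say how cells were called. The list of genes names 26893 of 27998 rows. The other 1105 rows, with 12.6% of UMIs under Chd4 siRNA and 12.1% under control siRNA, were not analysed here, nor was the last cell of each matrix, which is incomplete. Cells with at least 1000 UMIs were kept, 858 of 860 and 816 of 816. Scrublet (scanpy 1.11.5, expected rate 1%) called 9 and 18 doublets, which were kept.

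UMIs were summed per library and class and divided by the class total. Ratios have exact conditional binomial intervals, levels exact Poisson, shares Clopper-Pearson (a count of 0 allows 3 counts of the total) and differences of shares Newcombe intervals. Genes near 50 UMIs have log2 intervals wider than 1.5. The code was tested on simulated counts. Start windows came from RefSeq and gene positions from GENCODE on the same assembly. TMM (edgeR 4.0.16) and DESeq2 1.42.0 factors served for scaling only. The 10 genes, the 6 gene lists and the marker lists were chosen with earlier results of these data known. Named from each list were up to 4 genes with at least 50 UMIs, ranked by the bound of the interval closest to a ratio of 1, and pathway genes needed to say which steps were found. Of the pathway lists, Rbp4, Rbpr2, Aldh1a1, Aldh1a7, Cyp26a1, Cyp26c1, Meiosin, Cdx1, Dleu2, Tdrd1 and Ovol1 were not analysed here. Values of some genes of the pathway lists are not reported here, though the lists' counts and medians include them.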

Additional observations from a re-analysis of the deposited data

How the results depend on the processing

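No paired analysis was possible because each group is 1 library. Under the 14 alternatives (TMM and DESeq2 scaling, totals without ribosomal protein genes, means of per-cell values, other choices of cells and depths), 139 of 140 log2 ratios stayed within their counting intervals. No ratio whose interval excluded 0 changed sign, but Rara was at −0.049 in cells under 15000 UMIs, and Rarg at −0.099 with thinned cells, −0.056 in cells of at least 15000 UMIs and −0.0078 over all cells. The ranges were 0.43 to 0.79 for Crabp1, 0.27 to 0.51 for Crabp2 and 0.30 to 0.53 for Sohlh2. The exception was Crabp1, at 0.79 with cells thinned to 9000 UMIs, a single draw whose average over all thinnings was 0.63. At 1.5-fold 1 gene was counted higher in place of 3, and with no minimum 1 gene, Kit, was counted lower. TMM scaling counted 2 higher. Of 50 share differences, 49 stayed within their intervals, and Rhox13 moved to −2.89 percentage points at 6000 UMIs, with an average over thinnings of 1.68. Share differences of Rarg, Stra8, Sohlh1 and Rhox13, whose intervals included 0, changed sign under at least 1 alternative. Counts of co-detected pairs changed most. Within the set they were 0 in the single draw at 6000 UMIs and 4 without thinning, in place of 1. With listed genes they were 34 without thinning, in place of 6. In the single draw at 6000 UMIs, Crabp1 with Egr4 and Crabp2 with Pou5f1 reversed under Chd4 siRNA, to −1.02 and −1.80 percentage points. Their averages over all thinnings to 9000 UMIs were 7.40 and 10.5. These were the 2 reversals among 56 alternative values, so no average over thinnings to 9000 or 6000 UMIs reversed. Sohlh1 with Elavl2 under control siRNA moved to −16.7 on average over thinnings, from −9.29 in the single draw. The cause was not tested. The averages over thinnings and the splits by depth and by unnamed rows were chosen after seeing the data. Depth limits Stra8, Kit, Dmrtb1 and Rarg, whose intervals span at least 0.9 on the log2 scale.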

Other observations

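Several pairs not described above had averages over all thinnings of the same sign in both libraries. Bcl6b and Lhx1, transcription factors that GDNF induces in stem cells, were less frequent in cells with Crabp2. The Bcl6b difference was −9.06 percentage points under Chd4 siRNA and −11.8 under control siRNA, and the Lhx1 difference was −6.87 and −9.61. Etv5, another such factor, stood at −5.54 and −10.8. Ddit4, a stress response gene of the progenitor list, was more frequent in cells with Crabp2, by 9.01 and 9.14. Tex15 was more frequent in cells with Sohlh1, by 6.42 and 7.44. These pairs were picked after their values were seen, and in the single thinning none had intervals without 0 in both libraries.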
